A study of Mus musculus with 3 samples.

Results

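Th, Dbh, Stmn2, Tubb3, Sox10, Erbb3 and Ednrb, 7 genes that mark neural crest, glial cells and autonomic neurons, were examined in hearts of C57BL/6 mouse embryos at embryonic day 15.5. Members were all gene probes of the arrays that carry 1 of these 7 names. They are 7 of the 27632 gene names on the arrays and gave 14 of 41174 probes, printed on 32 spots of each array. Transcripts of hearts labelled Lrrc10-/- (null for Lrrc10, a gene of cardiomyocytes whose protein carries leucine-rich repeats) were compared with those of littermate hearts labelled Lrrc10+/+. Each of 3 two-colour arrays carried 1 pool of 2 Lrrc10-/- hearts in the red dye (Cy5) and 1 pool of 2 Lrrc10+/+ hearts in the green dye (Cy3). The 3 arrays are replicates 1 to 3, described in the methods as independent. A line null in every cell does not separate heart muscle from the nerves and glia studied here. The dyes were never exchanged, so genotype and dye cannot be told apart.

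The targeted gene went against its labels. Processed signals of the Lrrc10 probe (chr10:116483517-116483576, mm9) were 6294, 8521 and 12637 in the channel labelled Lrrc10-/- and 281, 237 and 200 in the channel labelled Lrrc10+/+ on replicates 1, 2 and 3. The log2 ratio was 4.41 ± 0.40 (SD, n = 3; limma adjusted p = 0.000386). Every direction below is therefore that of the channel labelled Lrrc10-/- over the channel labelled Lrrc10+/+, and higher and lower would change places if the labels were exchanged. The Y-linked gene Eif2s3y gave signals of 3447, 2644 and 7504 in Cy5 and 2393, 14.7 and 7.24 in Cy3, so the pools of an array differed in the sex of the embryos on replicates 2 and 3, while both pools of replicate 1 held male tissue. The share of gene spots well above background was 88.9%, 82.4% and 63.9% in Cy5 and 87.2%, 93.2% and 69.3% in Cy3, so that replicate 3 gave the smallest number of usable spots. Cardiomyocyte, endothelial, smooth muscle and epicardial markers were well above background in both channels of every array (10 of 10, 8 of 8, 5 of 5 and 6 of 6 genes). Of these, 8 of 10 cardiomyocyte probes and 1 of 5 smooth muscle probes were saturated in a channel of at least 1 array, so no ratio is given for those lists, while the endothelial and epicardial medians were 0.016 and 0.0084 on the log2 scale. These medians do not show differences between arrays or genes. The epicardial gene Wt1 had log2 ratios of -0.18, -0.17 and 0.44 on replicates 1, 2 and 3, and Tbx18 0.15, 0.061 and -0.25. Endothelial means ran from -0.44 (Tie1) to 0.28 (Cdh5). None of the 14 member probes was saturated.

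Neural crest cells leave the dorsal neural tube, enter the heart with the outflow tract and the vagal and sympathetic routes, and form the neurons and glia of the cardiac nerves as well as other derivatives. Sympathetic neurons make noradrenaline from tyrosine in steps that begin with tyrosine hydroxylase (Th) and end with dopamine beta-hydroxylase (Dbh). The stathmin Stmn2 and the tubulin Tubb3 belong to the microtubule system of growing neurons. Sox10 is the transcription factor that keeps crest cells and their glial descendants in that lineage, and Erbb3 is the receptor through which Schwann cell precursors respond to neuregulin 1 from axons. Ednrb, the endothelin receptor type B, guides crest cells that become melanocytes and enteric neurons. Some members are not exclusive to the lineage: in the heart Erbb3 also serves the endocardial cushions, and Ednrb is expressed by endothelial cells.

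The results turn on a few of the 60-base probes, of which the first 30 bases are shown in 5′ to 3′ order as read from the files. The probes for Th and Tubb3 are shown because each was printed 10 times on every array, and both Ednrb probes because they gave ratios of opposite sign. The last pair are Erbb3 probes that share 40 bases, and capitals mark the shared bases, which begin at base 21 of the first and base 1 of the second.
Th A_51_P486223: atcaaacctaccagccggtgtacttcgtgt
Tubb3 A_51_P381381: cattagggctcccaggttaaagtccttcag
Ednrb A_52_P577662: aaggacgccccagatcttcaattttaagtt
Ednrb A_51_P262964: agcaataaatacagctcgtcttgaaggcaa
Erbb3 A_51_P488243: acagtgaggccaagactccaATTAAATGGA
Erbb3 A_51_P342050: ATTAAATGGATGGCCCTTGAGAGTATCCAC

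No member differed between the channels by the test. A probe was tested where the same dye, red or green, was well above background on each of the 3 arrays, and 6 of the 14 probes, of 5 of the 7 genes, met this. All 6 were well above background in both channels of every array, and the other 8 probes, including the only probes of Th and Dbh, were not tested. By limma with Benjamini-Hochberg adjustment over 28328 tested probes, 0 of the 6 were higher and 0 were lower at an adjusted p under 0.05, and 0 had an unadjusted p under 0.05. Of all tested probes, 1.39% were called higher (395 probes) and 0.00353% lower (1 probe), so 0 of 6 is not a result about these genes. The lowest unadjusted p was 0.123, and adjusted p ran from 0.501 to 0.853. The median log2 ratio of the 6 probes was 0.12, with a range of -0.24 to 0.22, beside a median of 0.013 with quartiles of -0.11 and 0.15 over all tested probes. In 3 of the 6 the Cy5 channel was higher on all 3 arrays, and in 2 it was lower on all 3. These shares stand beside 19.1% and 17.4% of all tested probes. In bulk hearts, fewer cells of a type and less RNA per cell cannot be told apart.

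**Figure D1:**
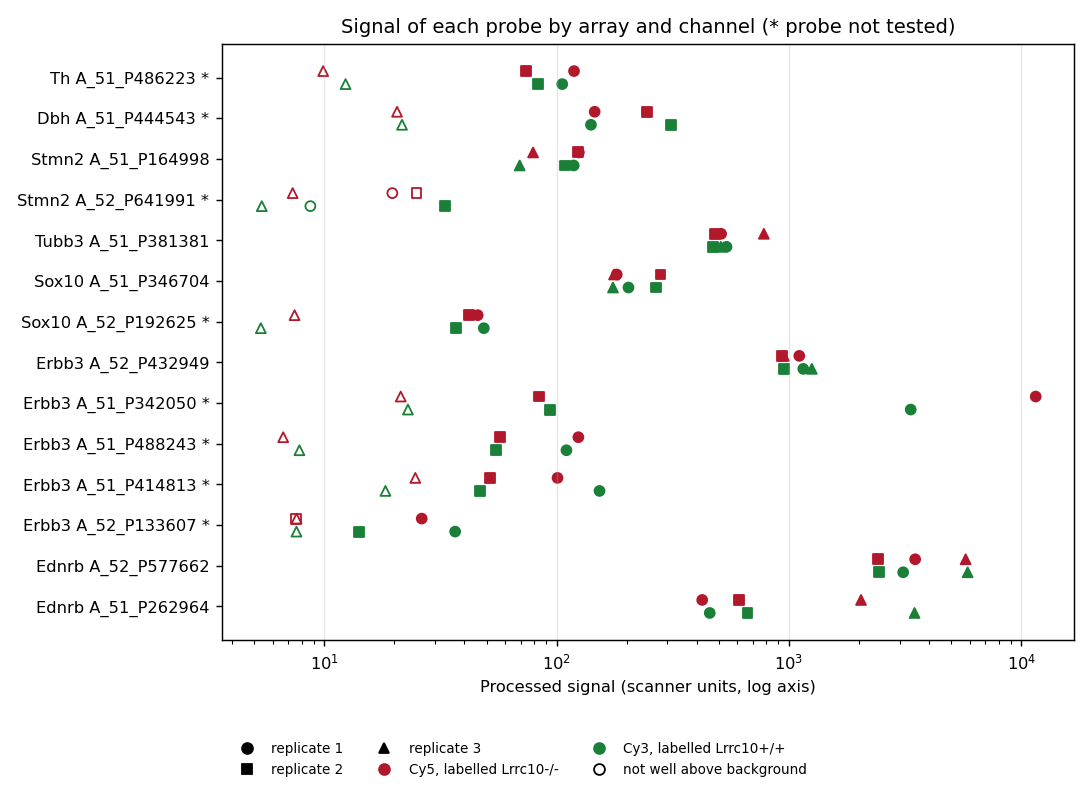
Processed signal of the 14 probes, with Cy5 (labelled Lrrc10-/-) in red and Cy3 (labelled Lrrc10+/+) in green, 1 point per array and channel on a log axis in scanner units, open where not well above background. Both channels of Th and Dbh are open and lowest on replicate 3, and 1 Erbb3 probe stands at 11518 and 3339 on replicate 1, where its spot was flagged.

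Th was close to equal in the 2 channels where it could be measured. Its probe (chr7:150079917-150079976, mm9, from base 1278 of the transcript NM_009377) gave mean processed Cy5 signals of 119 and 73.6 on replicates 1 and 2, beside Cy3 signals of 106 and 83.1. On replicate 3 the signals were 9.90 in Cy5 and 12.4 in Cy3, and 0 of the 10 spots were well above background in either channel, against 10 of 10 in both channels of the other 2 arrays. The 3 log2 ratios were 0.098, -0.11 and 0.0008, a mean of -0.0048 ± 0.11 (SD, n = 3). The sign was not the same on all arrays, and the third ratio rests on signals at the background.

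Dbh also fell below the background limit on replicate 3, but from replicate 1 to replicate 2 it rose where Th fell. Its single spot (chr2:27037081-27037140, mm9) gave 146, 245 and 20.6 in Cy5 and 141, 311 and 21.6 in Cy3, so that it too was well above background in both channels of replicates 1 and 2 and in neither channel of replicate 3. The log2 ratios were 0.079, -0.19 and 0.036, with a mean of -0.026 ± 0.15 (SD, n = 3). For both enzymes the difference between arrays was far larger than any difference between channels of the same array. Beside this, 6 of the 12 member probes that were above background in both channels of replicates 1 and 2 were in neither on replicate 3, as were 34 of 176 probes (19.3%) of the related gene lists described below and 15.5% of 32767 probes of the whole array. Those 6 were the probes of Th and Dbh, the second Sox10 probe and 3 Erbb3 probes. The share over the whole array counts bright and dim probes alike, and no comparison with probes of like signal was made. Leaving out the flagged spot of replicate 1, none of the 6 exceeded 311 on the first 2 arrays. The tested probes of Stmn2 (at most 125) and Sox10 (at most 280) were above background on replicate 3. The rule for testing required this in at least 1 channel, so they give no contrast with Th and Dbh. The cause of the fall was not tested.

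**Figure D2:**
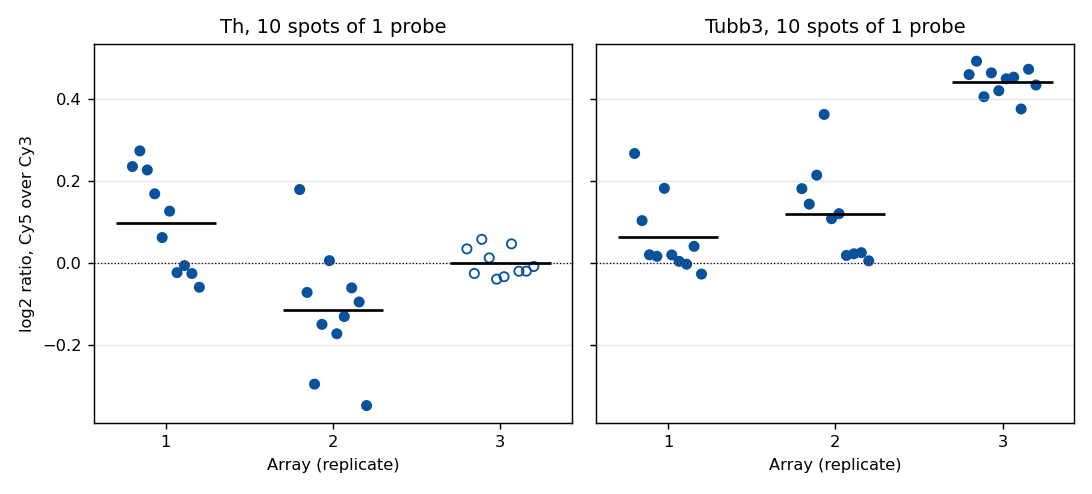
Log2 ratio of Cy5 over Cy3 at each of 10 spots of the Th probe (left) and the Tubb3 probe (right) on each array, in file order, with lines at the array means and open points where a channel was not well above background. All 10 Tubb3 spots of replicate 3 lie above every spot of replicates 1 and 2, while Th has spots on both sides of 0 on each array.

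The sequence before the start of each enzyme gene is shown for reference. Probes of other members were also below the background limit on replicate 3, and a link between sequence and signal was not tested. In the RefSeq table used here (GRCm38.p6), 4 of the 7 genes had a promoter entry (Th, Dbh, Tubb3 and Ednrb). The 250 bases before the annotated start were searched on both strands for the cAMP response element TGACGTCA, which reads alike on both strands, and for the AP-1 site TGACTCA or its reverse complement TGAGTCA, and the motifs do not overlap. Capitals mark a match. Th, at chr7:142899996-142900245 on the minus strand, holds 1 cAMP response element that begins 45 bases before the start. Dbh, at chr2:27165257-27165506 on the plus strand, holds neither motif. The windows of Tubb3 and Ednrb hold neither as well.
Th: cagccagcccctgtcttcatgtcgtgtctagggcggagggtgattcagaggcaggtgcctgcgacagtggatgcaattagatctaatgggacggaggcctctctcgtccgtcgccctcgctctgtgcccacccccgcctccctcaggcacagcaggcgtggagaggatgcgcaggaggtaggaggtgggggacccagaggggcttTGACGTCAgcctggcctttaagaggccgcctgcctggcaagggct
Dbh: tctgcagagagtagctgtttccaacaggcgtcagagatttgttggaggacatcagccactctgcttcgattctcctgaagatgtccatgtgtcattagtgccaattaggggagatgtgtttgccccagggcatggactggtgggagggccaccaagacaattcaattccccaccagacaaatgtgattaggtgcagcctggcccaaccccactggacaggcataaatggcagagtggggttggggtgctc
Of 32851 promoter windows of this length, 1.55% hold the cAMP response element and 4.46% the AP-1 site. A match is a string of letters and not a measured site.

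The neuronal cytoskeleton genes were measured on all arrays. Stmn2, which encodes a microtubule-destabilizing protein of growth cones, read 125, 123 and 79.2 in Cy5, and in Cy3 118, 109 and 69.4 (probe A_51_P164998, chr3:8561261-8561320, mm9). The channels differed little on each array. Its log2 ratios were -0.0015, 0.058 and 0.13, with a mean of 0.063 ± 0.068 (SD, n = 3; limma adjusted p = 0.853; 95% interval -0.21 to 0.33). A second Stmn2 probe, designed from the cDNA AK043202, stayed between 5.39 and 33.2 in all channels and was well above background in 1 channel of 1 array only.

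Tubb3, the class III beta-tubulin of neurons, was evenly matched on replicates 1 and 2 and higher in the channel labelled Lrrc10-/- on replicate 3. Its 10 spots (chr8:125945701-125945760, mm9) averaged 510, 482 and 779 in Cy5, against 538, 471 and 509 in Cy3. Its log2 ratios were 0.063, 0.12 and 0.44, a mean of 0.21 ± 0.20 (SD, n = 3; limma adjusted p = 0.530; 95% interval -0.093 to 0.51). The 10 spots allow the spread within an array to be set beside the spread between arrays. Spot ratios ran from -0.027 to 0.27 on replicate 1 (SD 0.094), from 0.0057 to 0.36 on replicate 2 (SD 0.11) and from 0.38 to 0.49 on replicate 3 (SD 0.034). Thus the lowest spot of replicate 3 lay above the highest spot of the other arrays, and the ratio of replicate 3 stood apart by more than the spread of repeated spots. Spots of an array share 1 pair of RNA pools and 1 dye orientation, so they are not replicates of the comparison. Without replicate 3 the mean log2 ratio of Tubb3 was 0.092.

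**Figure D3:**
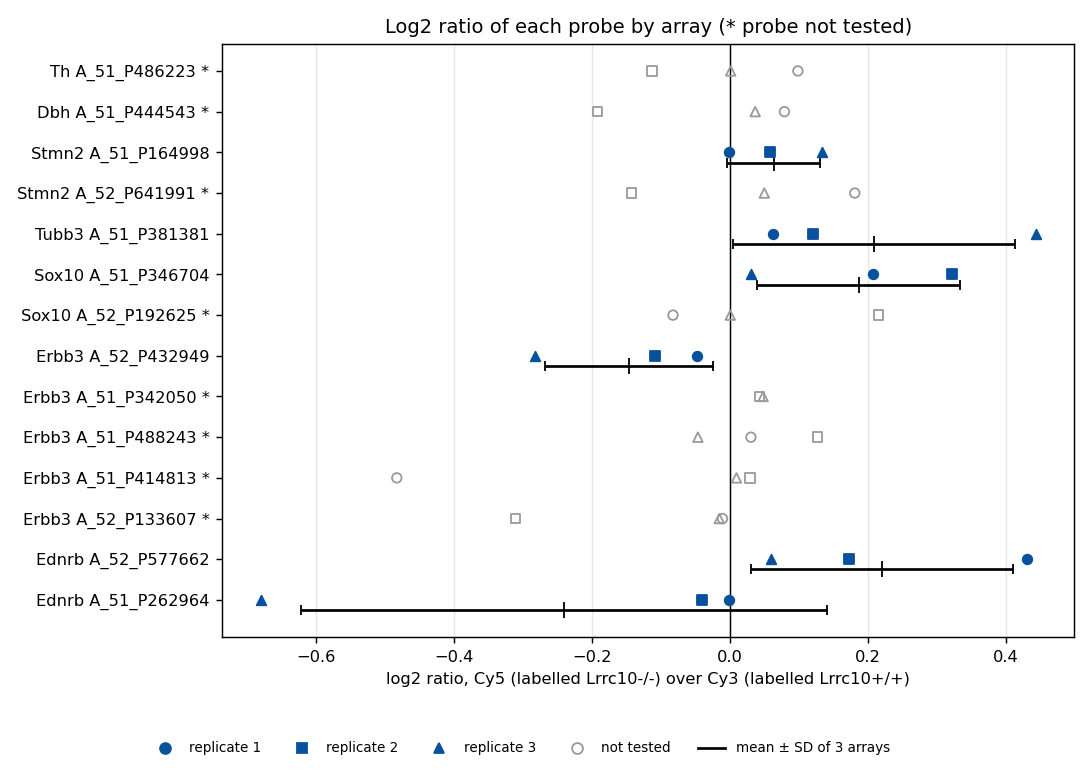
Log2 ratio of Cy5 (labelled Lrrc10-/-) over Cy3 (labelled Lrrc10+/+) for each probe and array, filled for the 6 tested probes and open for the other 8, with bars for the mean ± SD of 3 arrays beneath the tested probes. The 2 Ednrb probes lie on opposite sides of 0, with means of 0.22 and -0.24, and no tested probe passed the test.

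Of the glial and crest genes, Sox10 was measured by probe A_51_P346704 (chr15:78985505-78985564, mm9). It read 181, 280 and 177 in Cy5, against 204, 268 and 175 in Cy3. The loess log2 ratios were 0.21, 0.32 and 0.030, with a mean of 0.19 ± 0.15 (SD, n = 3; limma adjusted p = 0.553; 95% interval -0.098 to 0.47). All 3 were above 0, but the direction depended on the normalization: the ratios of the software's processed signals averaged -0.030 ± 0.12. The second Sox10 probe (A_52_P192625) gave 45.8, 41.9 and 7.46 in Cy5 and 48.6, 37.1 and 5.34 in Cy3, again below the background limit in both channels on replicate 3.

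Erbb3 was represented by 5 probes that gave very different signals. The brightest, A_52_P432949 (chr10:128004749-128004808, mm9, on the same chromosome as Lrrc10), was designed from the Ensembl transcript ENSMUST00000082059. It gave 1107, 933 and 951 in Cy5 and 1152, 953 and 1253 in Cy3. The channel labelled Lrrc10-/- was lower on each array, by the most on replicate 3. Its log2 ratios were -0.047, -0.11 and -0.28, with a mean of -0.15 ± 0.12 (SD, n = 3; limma adjusted p = 0.634; 95% interval -0.42 to 0.13). Without replicate 3 the mean was -0.078.

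The other 4 Erbb3 probes, designed from NM_010153, were not tested. A_51_P488243 and A_51_P342050, the overlapping pair printed above, begin at bases 2596 and 2616 of the transcript. The first gave 124, 56.8 and 6.66 in Cy5 and 110, 54.9 and 7.82 in Cy3. The second read 83.8 in Cy5 against 93.3 in Cy3 on replicate 2 and 21.3 against 22.9 on replicate 3, but 11518 against 3339 on replicate 1. That spot carried the software's non-uniformity flag and was left out, which leaves log2 ratios of 0.043 and 0.048 from 2 arrays. A probe sharing 40 of its 60 bases read 124 and 110 on the same array, so the value of 11518 was not repeated by its neighbour. A_51_P414813 gave 101, 51.6 and 24.7 in Cy5 and 153, 46.9 and 18.3 in Cy3, and A_52_P133607 did not exceed 36.6 in any channel. The 4 probes had mean log2 ratios from -0.15 to 0.045, and none was above background in either channel of replicate 3.

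Ednrb was bright on all arrays, and its 2 probes had mean loess ratios of opposite sign, a difference that was not tested. Probe A_52_P577662 (chr14:104214484-104214543, mm9, from base 3288 of NM_007904) gave 3489, 2406 and 5754 in Cy5 and 3099, 2448 and 5868 in Cy3. The log2 ratios were 0.43, 0.17 and 0.059, with a mean of 0.22 ± 0.19 (SD, n = 3; limma adjusted p = 0.501; 95% interval -0.076 to 0.52). The channel labelled Lrrc10-/- was higher by loess on each array, and most on replicate 1. Without replicate 1 the mean was 0.12, and from the software's processed signals it was 0.039 ± 0.11. The processed ratios were 0.17, -0.025 and -0.028 on replicates 1, 2 and 3, so the sign on replicates 2 and 3 depended on the normalization.

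Probe A_51_P262964 (chr14:104216247-104216306, mm9, from base 1525 of the same transcript) gave 423, 607 and 2041 in Cy5 and 456, 662 and 3468 in Cy3. Its channels were nearly equal on replicates 1 and 2, and on replicate 3 both were brighter, the channel labelled Lrrc10+/+ more so. The log2 ratios were -0.0017, -0.040 and -0.68, with a mean of -0.24 ± 0.38 (SD, n = 3; limma adjusted p = 0.564; 95% interval -0.62 to 0.14). Its departure from 0 rested on replicate 3, without which the mean was -0.021. This was the tested member probe with the largest mean change. Of 18990 other genes, the 3 whose ratios on the 3 arrays were most like it were Stim2 (root mean square difference 0.013), Fcsk (0.020) and AI987944 (0.027), which likewise stood near 0 on replicates 1 and 2 and at -0.67, -0.70 and -0.66 on replicate 3. Likeness over 3 arrays is a description only.

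Arrays differed more than channels for most tested members. On signals scaled to the 75th percentile of each array, the span between the highest and lowest array exceeded the largest Cy5 over Cy3 ratio of any array in 5 of the 6 tested probes, as it did in 64.0% of all tested probes. The median span was 0.97 in Cy5 and 0.94 in Cy3 on the log2 scale, beside a median largest ratio of 0.30 for the same 6 probes.

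Genes that work with the members were followed through 7 lists of 122 genes, of which 96 had a tested probe. By limma, 0 were called higher and 0 lower, and at an unadjusted p under 0.05 there were 11 higher and 5 lower. These are 11.5% and 5.21% of the 96 genes, near the 10.69% and 4.19% of all 18991 tested genes at 1 probe each, of which 344 were called higher and 1 lower. The median log2 ratio was 0.025 over the 96 genes and 0.028 over all tested genes, with 53 of 96 and 10601 of 18991 above 0. Of the 96 probes, 1 (Stmn1) was saturated. Genes named below without a passing test are those of largest mean change in 1 direction on all 3 arrays, or genes named by rule whatever their value.

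**Figure D4:**
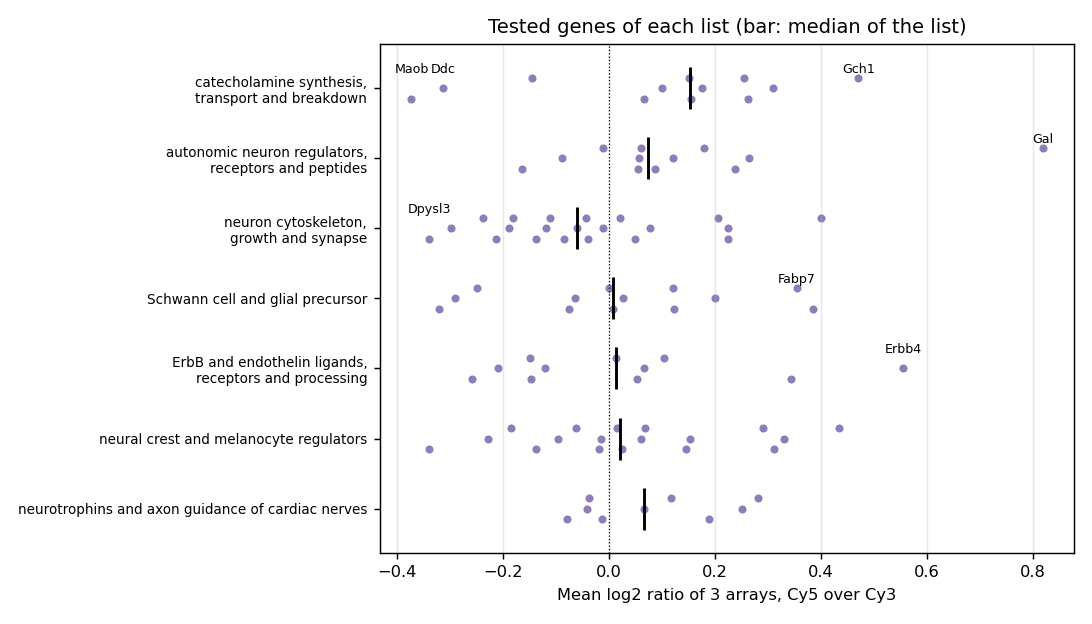
Mean log2 ratio of Cy5 over Cy3 for each tested gene of 7 lists (1 point per gene, 96 genes), with a vertical bar at each list's median. The medians lie between -0.060 and 0.15, Gal is the highest point at 0.82, and no point passed the test.

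In the list of catecholamine synthesis, transport and breakdown, 12 of 13 genes were tested, 0 passed, and the median log2 ratio was 0.15. Ddc, the decarboxylase between Th and Dbh in the pathway, has a form expressed in embryonic heart muscle and was bright, with signals of 20573, 16439 and 29878 in Cy5 and 27979, 23431 and 39645 in Cy3. It was lower in Cy5 on each array, with a mean log2 ratio of -0.31 ± 0.093 (SD, n = 3; limma adjusted p = 0.309). A second Ddc probe (A_52_P63905) gave -0.70 ± 0.25 (SD, n = 3; limma adjusted p = 0.067), the same direction at a larger size. Gch1, which starts the synthesis of the cofactor that Th needs, had a mean of 0.47 (limma adjusted p = 0.254), but its second tested probe gave -0.19 and was lower on all 3 arrays. The amine oxidase gene Maob had a mean of -0.37 (limma adjusted p = 0.272). The noradrenaline transporter gene Slc6a2 was above background in 1 channel of 1 array, with signals from 5.73 to 20.9, and was not tested.

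Among regulators, receptors and peptides of autonomic neurons, 12 of 24 genes were tested, 0 passed, and the median was 0.073. The neuropeptide galanin (Gal) gave signals of 3914, 2616 and 6234 in Cy5 and 2343, 2292 and 2486 in Cy3. Every Cy5 value was above every Cy3 value, and the mean log2 ratio was 0.82 ± 0.47 (SD, n = 3; limma adjusted p = 0.108). Gata2 had a mean of 0.24 (limma adjusted p = 0.471), which turned to -0.0075 on processed signals. Its second tested probe gave 0.44 (limma adjusted p = 0.236), higher on all 3 arrays, and 0.31 on processed signals. Gap43 of growing axons, a gene of the next list named after its values were seen, gave 428, 337 and 591 in Cy5 and 512, 355 and 583 in Cy3, without the low values on replicate 3 that Th and Dbh had. Only tested probes represent the lists, so a probe below the background limit in both channels of replicate 3 could not stand here.

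Of the list of neuron cytoskeleton, growth and synapse genes, 21 of 26 were tested, 0 passed, and the median was -0.060. Dpysl3, a collapsin response mediator, and the tubulin gene Tubb4a had means of -0.34 and -0.30 (limma adjusted p = 0.368 and 0.374).

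Of Schwann cell and glial precursor genes, 13 of 15 were tested, 0 passed, and the median was 0.0065. Fabp7, the fatty acid-binding protein of glial precursors, gave 1355, 2708 and 3814 in Cy5 and 1190, 2324 and 2417 in Cy3, with a mean log2 ratio of 0.35 ± 0.21 (SD, n = 3; limma adjusted p = 0.302). Foxd3, a crest regulator upstream in the lineage, had a mean of -0.25 (limma adjusted p = 0.446).

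Of ErbB and endothelin ligands, receptors and processing enzymes, 11 of 14 were tested, 0 passed, and the median was 0.013. Erbb2, the partner with which Erbb3 signals, had a mean log2 ratio of -0.15 ± 0.067 (SD, n = 3; limma adjusted p = 0.621), and the ligand gene Nrg1 -0.15 ± 0.14 (SD, n = 3; limma adjusted p = 0.633). Both of these probes were lower in Cy5 on all 3 arrays. The other 3 tested Nrg1 probes gave 0.069, -0.042 and -0.20, so the sign for Nrg1 depended on the probe. Erbb4, the neuregulin receptor of heart muscle, gave 0.56 ± 0.52 (SD, n = 3; limma adjusted p = 0.280), with 8788, 6902 and 8005 in Cy5 and 5706, 5941 and 3386 in Cy3. Its mean was 0.27 without replicate 3. The second tested Erbb4 probe gave -0.034, but it was dim, with signals from 39.2 to 61.4. Of the endothelins, Edn1 had a mean of 0.34 (limma adjusted p = 0.355). Edn3, the ligand by which Ednrb acts on crest cells, had 2 probes that were above background on replicates 1 and 2 only, with signals from 50.3 to 115 there, and was not tested.

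Of neural crest and melanocyte regulators, 18 of 20 were tested, 0 passed, and the median was 0.020. The melanocyte enzyme gene Dct gave 0.33 and the semaphorin receptor gene Plxnd1 -0.34 (limma adjusted p = 0.347 and 0.325). Of neurotrophins and axon guidance genes of cardiac nerves, 9 of 10 were tested, 0 passed, and the median was 0.066, with Nrtn at 0.25 and Plxna4 at 0.19 (limma adjusted p = 0.412 and 0.555). On processed signals these were 0.048 and 0.0063.

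Markers of lung, thymus and adrenal cortex stood beside these values. Of 6 lung markers, 1 was above background on all arrays in each channel, with summed signals of 325 to 453 in Cy5 and 278 to 495 in Cy3. Of 5 thymus markers with a probe, 3 were, with sums of 530 to 1331 in Cy5 and 325 to 1491 in Cy3. Of 5 adrenal cortex markers, 3 were in Cy5 and 4 in Cy3, with sums of 948 to 1727 and 742 to 1880. The thymus and adrenal sums were lowest on replicate 3 in both channels, as Th and Dbh were, and the lung sums too. Not every marker followed its sum. The lung gene Scgb1a1 read 146, 114 and 279 in Cy5, and the thymus gene Lck 138, 100 and 252. Both were highest on replicate 3 in Cy3 as well. The part of such tissues in the signals of Th and Dbh was not tested.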

How the data were processed

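Two-colour arrays of 3 replicates were read from the deposited scanner files. The processed intensity of each spot had been background-subtracted and dye-normalized by the authors' software, and the deposited log10 ratio is that of processed Cy5 over Cy3 (within 0.001) except at 798, 1792 and 6525 spots of replicates 1, 2 and 3, where it is set to 0. Per the file headers this was Feature Extraction 9.1.3.1 for replicate 1 and 10.7.3.1 for replicates 2 and 3, while the submitters' notes name 9.5. The deposited series table equals these log10 ratios (largest difference 0; medians -0.0081, -0.0060 and 0), and no value was taken from it. The processed alternative is log2 of processed Cy5 over processed Cy3, without such zeros. Log2 ratios were computed from the deposited mean and local background intensities with limma 3.58.1 in R 4.3.3 by normexp (offset 50) and loess within arrays. Control spots had weight 0, non-uniform spots were left out and spots of a probe were averaged. A probe was tested if well above background in 1 channel on all 3 arrays (28328 probes), with lmFit and eBayes, two-sided, Benjamini-Hochberg, threshold 0.05. Probe positions are those of the headers' build, mm9. Promoters are from RefSeq (GRCm38.p6), and the 2 builds were not mixed. No exon models were used, so the part of the gene under each probe is not given.

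Groups, ages and pools come from the labels. Those of the Cy3 channel also hold an adult age beside embryonic day 15.5, which was taken. Each gene of a list is represented by its tested probe of highest mean intensity. The members, lists and rules were chosen with earlier results of these data known. The genes named are every member probe, in each list every called gene or else the 2 of largest mean change in 1 direction on all arrays, 9 partner genes whatever their values (some are not reported here), and the 3 genes nearest to the most changed member. The fit was tested on simulated data. Alternatives covered background correction, normalization, filters, spot flags, tests and leaving out each array. With 3 arrays per comparison and no dye swap, the number of arrays limits the precision.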

Additional observations from a re-analysis of the deposited data

How the results depend on the processing

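The 6 tested member probes were recomputed under 15 alternatives. Of 90 member values, 89 kept their direction, none passed an adjusted p under 0.05, and 1 turned: Sox10, from 0.19 to -0.030 on processed signals. Alternatives that changed only the filter, the test or the spot flags left the ratios of these probes unchanged, so no direction could turn there. Leaving out an array also could not turn a probe with the same sign on all 3 arrays. The count of 89 was thus partly fixed in advance. Adjusted p of members ranged from 0.246 to 0.962 over the alternatives. Among the list genes named in the results, the representative probe of Gata2 turned, to -0.0075 on processed signals, where its second tested probe gave 0.31. Leaving out 1 replicate moved the mean by over 1.5 times for all 6 member probes and 9 of 17 named list genes, and processed signals did so for 3 of 6 and 9 of 17. Stmn2 moved from 0.063 to 0.028 without replicate 3, and Sox10 from 0.19 to 0.12 without replicate 2. Leaving out each replicate in turn, the count of list genes called higher ranged from 0 to 1, and called lower from 0 to 1. Both single calls came without replicate 3: Gal at 0.60 (limma adjusted p = 0.031) and Cnp, a glial enzyme gene, at -0.51 (limma adjusted p = 0.041). With all 3 arrays their values were 0.82 and -0.32, and neither passed. The cause was not tested. Signals near background on replicate 3 limit all 8 untested member probes, among them those of Th and Dbh.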
